A study of Mus musculus with 12 samples.

Results

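Aminoacyl-tRNA synthetases join each amino acid to its transfer RNA, the step that supplies the ribosome. Their transcripts were taken as the rows whose symbol is a capital letter followed by ars, ars1 or ars2, together with Eprs, Eprs1, Farsa and Farsb. This rule found 37 of the 55487 genes listed, of which 20 encode cytosolic enzymes and 17, with a 2 at the end of the symbol, encode mitochondrial ones. The rule uses names only and no measured value, although it was written with earlier results of these data known. All 37 passed the filter on low values (a mean of at least 1 TPM, transcripts of a gene among 1e+06 in the library).

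RNA sequencing had been done on G1E-ER4, a line of mouse erythroid progenitors that has no GATA1 of its own and carries a form of GATA1 switched on by estradiol. In all groups siRNA had been delivered into the cells 2 times at an interval of 24 h, differentiation had been started with 100 nM β-estradiol at the second delivery, and cells were collected 24 h later. The siZIP10 plus DTPA group (3 libraries) had an siRNA against the zinc importer ZIP10, which Slc39a10 encodes, and 25 µM of the extracellular metal chelator DTPA from the start of differentiation. The siControl plus DTPA group (2 libraries) had a control siRNA and the same DTPA, the siZIP10 group (3 libraries) had the siRNA against ZIP10 alone, and the siControl group (3 libraries) had the control siRNA alone. The values given for siControl plus DTPA replicate 3 repeat those of siZIP10 replicate 1 for all 55487 genes, so that library was left out. All cells came from the 1 line, so p-values measure the spread between its cultures, and in bulk RNA fewer cells of a kind and less RNA per cell cannot be told apart.

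Cytosolic synthetases charge the transfer RNAs that read nuclear messages, and in mammals several of them are held in a multisynthetase complex by 3 scaffold proteins, Aimp1, Aimp2 and Eef1e1. A second set of nuclear genes supplies the mitochondrion, which makes a few proteins of the respiratory chain on its own ribosomes. Gars and Kars make the enzymes of both compartments from a single gene, and no mitochondrial glutaminyl enzyme exists in mammals, where the amidotransferase of Gatb, Gatc and Qrsl1 makes glutaminyl-tRNA instead. Many cytosolic synthetase genes are targets of ATF4, the transcription factor of the amino acid response. In maturing red cells protein synthesis is given over to globin.

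The recovered depth was 19.63 to 24.69 M reads per library, and members were covered by 32 (Ears2) to 112188 (Lars2) reads. Slc39a10 stood at 0.539, 0.507 and 0.837 TPM in siZIP10, against 2.78, 2.31 and 2.78 TPM in siControl. It was higher under DTPA, at 5.36, 4.93 and 5.02 TPM in siZIP10 plus DTPA and 22.0 and 20.3 TPM in siControl plus DTPA. Mt1 and Mt2, metallothionein genes induced by zinc, were lower in every DTPA library than in any library without it. The knockdown did not lower them. On the log2 scale Mt1 changed by 0.23 with the knockdown alone and by 0.64 with the knockdown added to DTPA. Mt2 changed by 0.24 and 0.35 in the same comparisons. Of 11 erythroid markers, 10 were measured and all were present in every library, with a summed level of 38679.6 to 46499.9 TPM in siZIP10 plus DTPA, 48274 to 54764 TPM in siControl plus DTPA, 46155 to 49522 TPM in siZIP10 and 40785 to 45696 TPM in siControl. The siZIP10 plus DTPA libraries stood apart from the rest. Mitochondrial rRNA was 1.43% to 1.45% of their TPM, against 0.26% to 0.42% in the other groups.

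Summed markers of other blood lineages were also higher in the siZIP10 plus DTPA libraries, though each sum rested on few genes. The sum of 7 megakaryocyte markers was 57.3 to 58.5 TPM there, against 16.2 to 17.5 TPM in siControl, with Ppbp among those at 0 in every library. The 7 mast cell and basophil markers summed to 98.3 to 103 TPM, against 39.2 to 43.9 TPM in siControl, with Ms4a2 and Mcpt8 at 0. The 7 myeloid markers summed to 41.7 to 44.3 TPM, against 15.7 to 16.5 TPM in siControl, with Mpo, Elane and Itgam at 0, and the 5 lymphoid markers to 2.38 to 3.15 TPM, against 0.296 to 1.08 TPM, with Cd79b and Il7r among those at 0. Each of these sums was higher in all 3 siZIP10 plus DTPA libraries than in any other library. Only 4 megakaryocyte, 2 mast cell and basophil, 2 myeloid and 1 lymphoid marker passed the filter on low values. In siZIP10 plus DTPA the sums were mostly Gp1ba (mean 27.1 TPM) and Itgb3 (22.4 TPM), Gata2 (77.1 TPM) and Hdc (21.6 TPM), and Spi1 (36.7 TPM). Of the megakaryocyte markers that passed, Gp9 was not higher there (1.51 TPM, against 1.76 TPM in siControl). Their part in the synthetase results below was not tested.

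The promoters of some cytosolic members hold the composite element bound by ATF4 and C/EBP proteins, the letters TGATGNAA. RefSeq promoter windows (GRCm38.p6, 250 bases before to 50 after the start) were at hand for 27 of the 37 members. The element was found on either strand in 5 of 13 cytosolic genes (38.5%) and in 0 of 14 mitochondrial genes. It was found in 4.51% of all 27025 genes with a window, and in 3.97% of all 32851 windows. These 5 are Aars, Gars, Iars, Tars and Yars. No window was at hand for Vars, Hars, Rars, Wars, Cars, Lars and Nars. The windows of the 3 of the genes with the element that fell most with both treatments are printed here, a choice made from their changes. Capitals mark the element, or its reverse complement TTNCATCA. In Aars (chr8:111033592-111033891, plus strand) the matches begin 112 bases before and 9 after the start, in Iars (chr13:49681880-49682179, plus strand) 7 after it, and in Yars (chr4:129189653-129189952, plus strand) 3 after it.
Aars: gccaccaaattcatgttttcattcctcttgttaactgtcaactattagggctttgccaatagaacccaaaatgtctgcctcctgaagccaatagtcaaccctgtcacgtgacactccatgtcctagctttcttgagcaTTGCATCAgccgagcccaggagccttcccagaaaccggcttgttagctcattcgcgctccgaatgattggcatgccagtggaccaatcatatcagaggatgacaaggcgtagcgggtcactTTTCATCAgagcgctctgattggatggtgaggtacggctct
Iars: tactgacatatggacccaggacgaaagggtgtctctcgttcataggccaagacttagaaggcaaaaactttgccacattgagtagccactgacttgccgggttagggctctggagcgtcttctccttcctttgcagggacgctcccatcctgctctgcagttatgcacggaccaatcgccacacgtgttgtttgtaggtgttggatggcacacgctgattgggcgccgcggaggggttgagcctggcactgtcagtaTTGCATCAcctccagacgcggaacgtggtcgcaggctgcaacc
Yars: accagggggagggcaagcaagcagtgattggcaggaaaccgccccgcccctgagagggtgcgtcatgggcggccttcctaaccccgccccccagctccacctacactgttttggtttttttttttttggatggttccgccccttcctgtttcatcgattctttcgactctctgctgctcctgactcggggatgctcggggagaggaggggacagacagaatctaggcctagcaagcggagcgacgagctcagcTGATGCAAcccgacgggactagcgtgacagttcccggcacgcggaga
The single match of Gars begins 30 bases and that of Tars 15 bases before the start. A match is a run of letters and no measured binding site. The palindromic site of NRF1, a factor for nuclear genes of mitochondrial proteins, was in none of the members' windows and in 0.971% of all windows.

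In siControl cells the cytosolic genes ran from Cars (18.7 to 21.5 TPM) to Aars (279 ± 3.19 TPM, SD, n = 3), TPM being a level per length. Aars, the alanyl enzyme, and Hars, the histidyl enzyme at 268 TPM, stood at the top, followed by Wars at 194 TPM and Nars at 185 TPM, and the libraries of these 4 genes did not overlap in level. Kars, Gars, Tars, Vars, Lars, Farsb and Mars1 lay between 86.4 and 102 TPM, each overlapping its neighbour. The mitochondrial genes other than Lars2 ranged from 1.24 TPM for Ears2, the glutamyl enzyme, to 25.2 TPM for Iars2, the isoleucyl enzyme. They lay below 19 of the 20 cytosolic genes, while the means of Iars2, Hars2 (22.6 TPM), Sars2 (21.8 TPM) and Rars2 (21.3 TPM) were above that of Cars. Lars2, the leucyl enzyme, was listed at 431 TPM, the highest of all 37 members, and is described on its own below.

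The sum of the 20 cytosolic genes was lowest with both treatments. It was 1603, 1546 and 1588 TPM in siZIP10 plus DTPA, 2006 and 1979 TPM in siControl plus DTPA, 2152, 2037 and 2083 TPM in siZIP10 and 2362, 2304 and 2328 TPM in siControl. All libraries of each treated group lay below all siControl libraries, and all siZIP10 plus DTPA libraries lay below every other library. The group means were 67.7%, 85.5% and 89.7% of siControl for siZIP10 plus DTPA, siControl plus DTPA and siZIP10. The 16 mitochondrial genes other than Lars2 moved less, summing to 179.6, 163 and 168 TPM in siZIP10 plus DTPA (89.7% of siControl), 187 and 183 TPM in siControl plus DTPA (97.3%), 177, 175 and 184 TPM in siZIP10 (94.1%) and 189.7, 188 and 193 TPM in siControl. These sums are a description with no test.

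**Figure D1:**
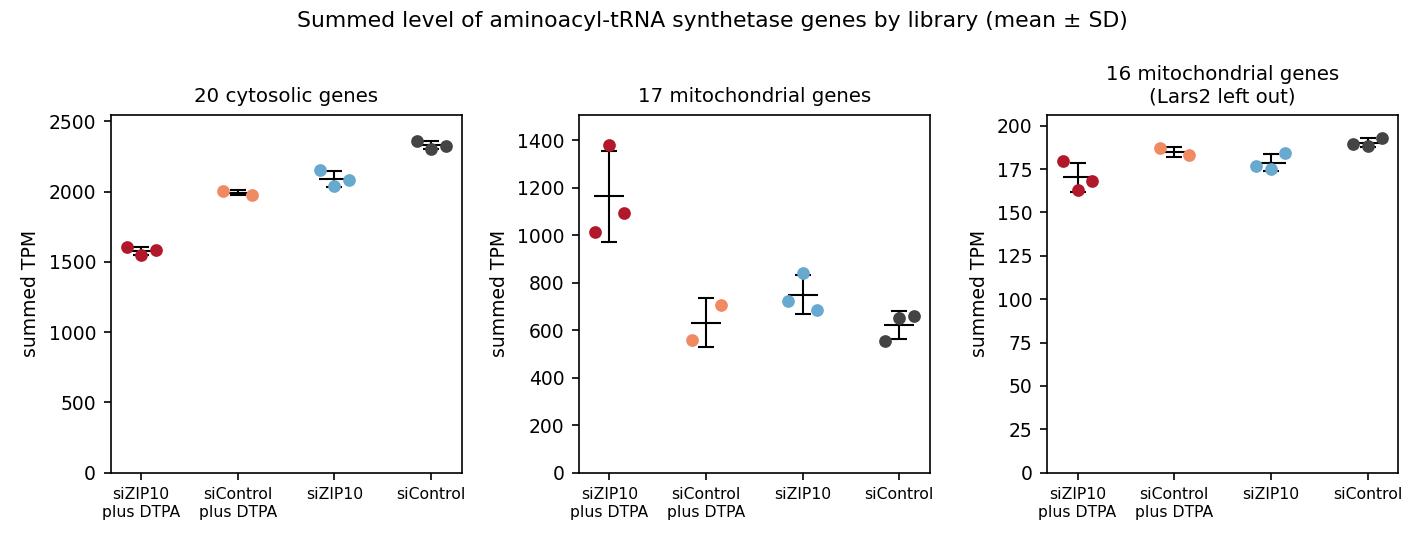
Summed TPM of the cytosolic genes, the mitochondrial genes and the mitochondrial genes without Lars2 in each library (points) with the mean and SD of each group (black). The cytosolic sum is 1546 to 1603 TPM in siZIP10 plus DTPA and 2304 to 2362 TPM in siControl, and the mitochondrial sum is higher in siZIP10 plus DTPA only while Lars2 is counted.

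The first comparison asked what the knockdown and DTPA did together, as siZIP10 plus DTPA against siControl. By limma with Benjamini-Hochberg adjustment over 11379 genes at a threshold of 0.05, 18 of 20 cytosolic genes fell, 1 rose and 1 was not called, with a median log2 change of −0.58. Over all genes tested 66.6% were called, 39.9% lower and 26.7% higher, with a median of −0.08. Of the 17 mitochondrial genes 5 fell, 3 rose and 9 were not called, with a median of −0.08, so their share of falls, unlike that of the cytosolic genes, was not above that of all genes. In 16 of 20 cytosolic genes all siZIP10 plus DTPA libraries lay below all 8 other libraries, which held for 31.1% of genes tested and for 4 of 17 mitochondrial genes. All siZIP10 plus DTPA libraries lay above all others in Dars and in 4 mitochondrial genes (Aars2, Cars2, Hars2 and Lars2), which held for 19.7% of genes tested.

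Vars, the valyl enzyme (ENSMUSG00000007029.16, mm10 chromosome 17, 35000987 to 35016322, plus strand), fell most. It stood at 39.8, 35.2 and 38.3 TPM in siZIP10 plus DTPA, 63.7 and 58.1 TPM in siControl plus DTPA, 59.2, 53.2 and 54.5 TPM in siZIP10 and 92.2, 94.8 and 98.0 TPM in siControl. Each treatment alone took it below siControl with no overlap, and both together took it lower still, to 39.7% of siControl. Its log2 change with both treatments was −1.31 (SE 0.06, adjusted p = 6.20e-09).

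Aars (ENSMUSG00000031960.14, chromosome 8, 111033144 to 111057664, plus strand) came next. It stood at 122, 118 and 119 TPM in siZIP10 plus DTPA, 196 and 191 TPM in siControl plus DTPA, 260.4, 239 and 244 TPM in siZIP10 and 283, 277 and 277 TPM in siControl. The 4 groups did not overlap, and the fall with both treatments, to 42.8% of siControl (−1.22, SE 0.03, adjusted p = 1.70e-10), was much larger than that with the knockdown alone (−0.17, adjusted p = 0.00253). The annotated exons of Aars share 1326 bases, 14.3% of their length, with Exosc6 on the same strand, a gene listed at 0 in every library. How reads of the shared bases were counted is unknown, so their share in the Aars value is unknown.

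Phenylalanyl-tRNA synthetase is made of both products of Farsa and Farsb, its catalytic and its other subunit. Farsa (ENSMUSG00000003808.18, chromosome 8, 84856989 to 84869257, plus strand) stood at 72.6, 72.0 and 65.8 TPM in siZIP10 plus DTPA, 105 and 106 TPM in siControl plus DTPA, 117, 112 and 111 TPM in siZIP10 and 134, 135 and 138 TPM in siControl (−0.94 with both treatments, SE 0.04, adjusted p = 3.51e-09). Farsb stood at 53.6, 54.0 and 51.8 TPM in siZIP10 plus DTPA, 78.4 and 73.3 TPM in siControl plus DTPA, 74.1, 74.5 and 73.2 TPM in siZIP10 and 85.1, 88.6 and 90.2 TPM in siControl (−0.72, SE 0.03, adjusted p = 1.29e-08). For both subunits the siZIP10 plus DTPA libraries were the lowest and the siControl libraries the highest, with no overlap between either of these groups and any other. Fars2, which serves the same amino acid in the mitochondrion as a single chain, stood at 18.1 to 20.3 TPM in siZIP10 plus DTPA and 17.6 to 18.9 TPM in siControl, overlapping (0.10, adjusted p = 0.0980).

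Hars, Tars, Gars and Yars, which are not held in the complex, also stood lowest with both treatments. Hars stood at 176, 174 and 173 TPM in siZIP10 plus DTPA, 227 and 229 TPM in siControl plus DTPA, 242, 230.0 and 229 TPM in siZIP10 and 274, 265 and 266 TPM in siControl (−0.62, SE 0.03, adjusted p = 5.76e-09). Tars, the threonyl enzyme, stood at 68.5, 66.4 and 67.7 TPM in siZIP10 plus DTPA, 88.6 and 85.7 TPM in siControl plus DTPA, 97.3, 92.6 and 92.1 TPM in siZIP10 and 105, 99.3 and 97.8 TPM in siControl (−0.57, SE 0.03, adjusted p = 9.15e-08). For Hars the groups with a single treatment lay together between the extremes, while for Tars the siZIP10 libraries lay nearer to siControl.
Gars, the glycyl enzyme of both compartments, stood at 68.6, 61.9 and 70.9 TPM in siZIP10 plus DTPA, 81.2 and 82.2 TPM in siControl plus DTPA, 99.4, 93.3 and 97.3 TPM in siZIP10 and 105, 97.7 and 101 TPM in siControl (−0.59, SE 0.05, adjusted p = 1.25e-06). Yars, the tyrosyl enzyme, stood at 33.6, 32.0 and 31.1 TPM in siZIP10 plus DTPA, 44.8 and 42.6 TPM in siControl plus DTPA, 48.4, 45.7 and 48.8 TPM in siZIP10 and 55.1, 51.7 and 55.2 TPM in siControl (−0.73, SE 0.04, adjusted p = 8.17e-08). Gars overlapped between siZIP10 and siControl and nowhere else, and Yars in no pair of groups. Wars (−0.56), Cars (−0.54), Sars (−0.39) and Nars (−0.27), the tryptophanyl, cysteinyl, seryl and asparaginyl enzymes, completed the 12 genes outside the complex, all of which fell, with a median of −0.60.

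The 8 members of the multisynthetase complex were divided. Eprs, the fused glutamyl and prolyl enzyme, stood at 17.2, 16.3 and 18.0 TPM in siZIP10 plus DTPA, 24.5 and 23.7 TPM in siControl plus DTPA, 26.5, 24.3 and 25.7 TPM in siZIP10 and 30.8, 28.3 and 28.8 TPM in siControl (−0.74, SE 0.05, adjusted p = 2.66e-07). Iars, the isoleucyl enzyme, stood at 45.2, 46.2 and 46.6 TPM in siZIP10 plus DTPA, 57.5 and 57.2 TPM in siControl plus DTPA, 59.4, 57.0 and 59.4 TPM in siZIP10 and 74.2, 75.0 and 73.3 TPM in siControl (−0.68, SE 0.03, adjusted p = 4.02e-09). Rars, the arginyl enzyme, stood at 81.8, 78.9 and 84.0 TPM in siZIP10 plus DTPA, 107 and 116 TPM in siControl plus DTPA, 111, 108 and 111 TPM in siZIP10 and 130.4, 123 and 121 TPM in siControl (−0.61, SE 0.04, adjusted p = 1.84e-07). In these 3 genes the siControl libraries were the highest and the siZIP10 plus DTPA libraries the lowest, and the groups with a single treatment overlapped. Mars1, the methionyl enzyme, fell by a smaller amount (−0.43, adjusted p = 9.92e-07). It shares 68 exonic bases with Ddit3 on the opposite strand, a gene of higher level that rose.

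The other 4 genes of the complex, Dars, Lars, Kars and Qars, stood out from the remaining cytosolic genes and were singled out after their values were seen. Dars, the aspartyl enzyme, stood at 81.1, 80.6 and 81.2 TPM in siZIP10 plus DTPA, 74.4 and 73.7 TPM in siControl plus DTPA, 72.1, 69.7 and 72.3 TPM in siZIP10 and 76.7, 73.4 and 72.9 TPM in siControl. It was the only cytosolic gene to rise against siControl (0.12, SE 0.03, adjusted p = 0.00262), and its siZIP10 plus DTPA libraries lay above all others.
Lars, the leucyl enzyme, stood at 90.4, 86.2 and 92.0 TPM in siZIP10 plus DTPA, 84.3 and 79.2 TPM in siControl plus DTPA, 79.3, 78.0 and 80.1 TPM in siZIP10 and 95.4, 89.0 and 93.4 TPM in siControl. Its level was lower with either treatment alone than with both or with none, and with both it overlapped siControl (−0.05, adjusted p = 0.270).
Kars, the lysyl enzyme of both compartments, stood at 95.5, 89.6 and 95.5 TPM in siZIP10 plus DTPA, 109 and 108 TPM in siControl plus DTPA, 98.3, 95.2 and 97.9 TPM in siZIP10 and 104, 99.3 and 102 TPM in siControl (−0.12, SE 0.03, adjusted p = 0.00608). Qars, the glutaminyl enzyme, stood at 75.5, 70.9 and 75.2 TPM in siZIP10 plus DTPA, 85.1 and 83.2 TPM in siControl plus DTPA, 75.7, 70.9 and 74.3 TPM in siZIP10 and 80.8, 76.3 and 79.0 TPM in siControl (−0.09, SE 0.04, adjusted p = 0.0491). Both were highest in siControl plus DTPA and otherwise lay close together. The sign of these small changes depends on scaling: under quantile normalization the changes of Kars, Lars and Qars were 0.07, 0.13 and 0.07, and under median-of-ratios scaling that of Qars was 0.00. The Qars call was also lost when any of 8 of the 11 libraries was left out, namely siControl replicates 1 and 3, both siControl plus DTPA libraries, siZIP10 replicates 1 and 3, or siZIP10 plus DTPA replicates 2 and 3 (−0.10 to −0.06, adjusted p = 0.0508 to 0.178).

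The median of the 8 complex members was −0.28 and that of the 12 other cytosolic genes −0.60. The 3 scaffold genes fell, Aimp1 by 0.40, Aimp2 by 0.37 and Eef1e1 by 0.52 on the log2 scale. The catalytic class of the enzyme made less difference: the median was −0.56 over 9 class I genes and −0.58 over 10 class II genes, with Eprs, which has both kinds of site, left out. No test was made between these groupings.

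**Figure D2:**
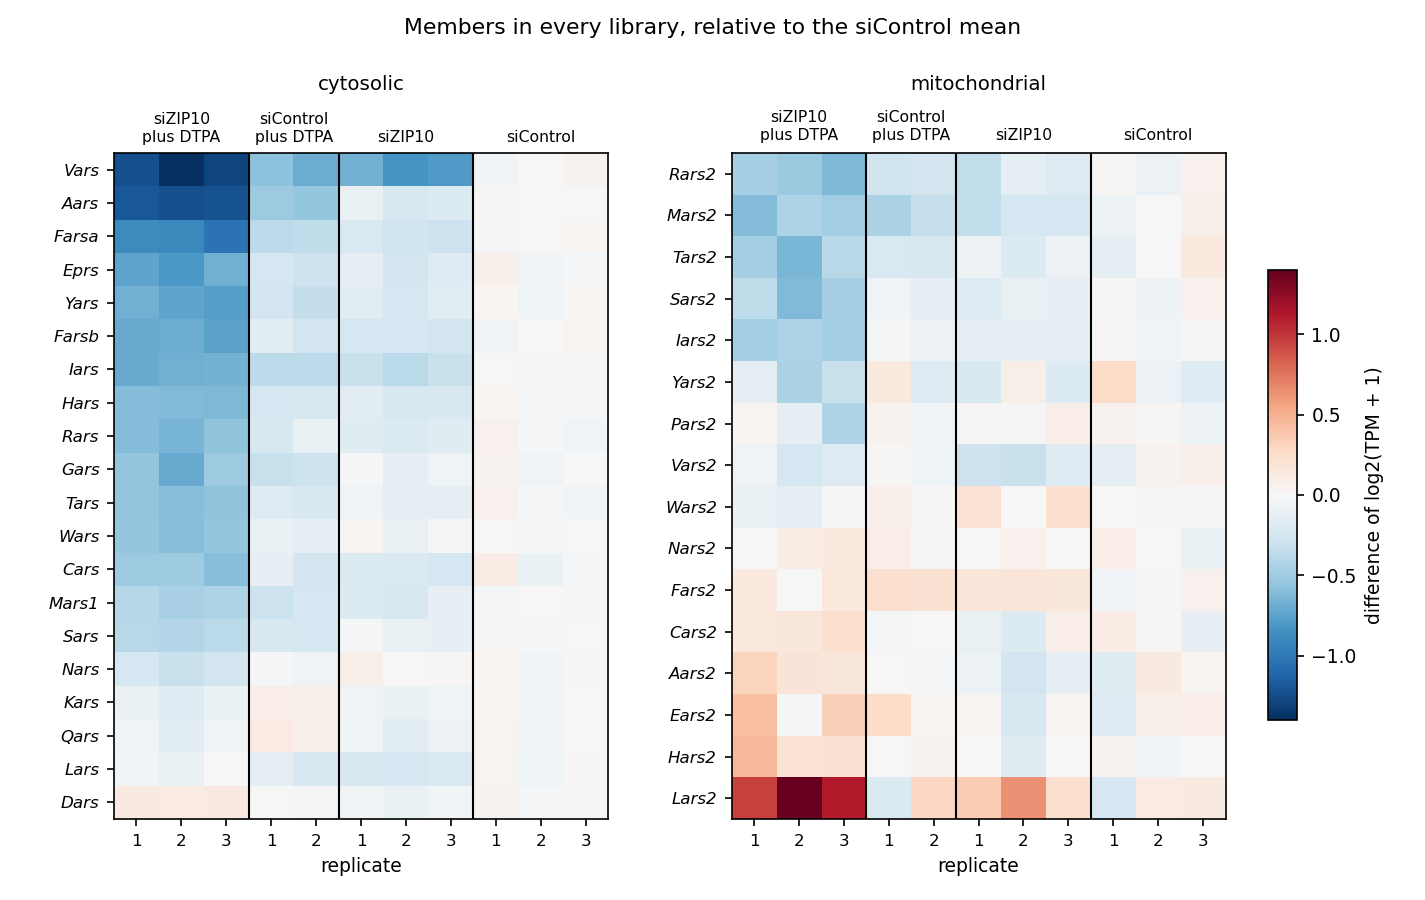
Difference of log2(TPM + 1) from the siControl mean for 20 cytosolic and 16 mitochondrial genes (rows, ordered by the change with both treatments) in each library (columns), blue below and red above siControl. Cytosolic rows are blue in siZIP10 plus DTPA from Vars (−1.31) to Nars (−0.27) and pale from Kars to Dars (0.12), while mitochondrial rows run from Rars2 (−0.54) to Lars2 (1.19).

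Among mitochondrial genes 5 fell with both treatments. Rars2, the arginyl enzyme, changed by −0.54 (adjusted p = 2.94e-05), standing at 15.1, 14.5 and 13.4 TPM in siZIP10 plus DTPA and 21.5, 20.1 and 22.3 TPM in siControl. Mars2, the methionyl enzyme, changed by −0.51 (adjusted p = 0.00103), Tars2, the threonyl enzyme, by −0.50 (adjusted p = 2.75e-04), Sars2, the seryl enzyme, by −0.48 (adjusted p = 6.28e-05) and Iars2 by −0.46 (adjusted p = 9.03e-07). Iars2 shares 2034 bases, 22.9% of its exon length, with Rab3gap2 on the opposite strand. Rab3gap2 stood at 38.4, 37.7 and 37.4 TPM in siZIP10 plus DTPA and 62.3, 63.6 and 62.3 TPM in siControl, and the strand setting of the counting is not given in the sources used here, so the share of its reads in the Iars2 value is unknown.

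The other 2 genes that rose beside Lars2 were Hars2 and Aars2, the histidyl and alanyl enzymes. Hars2 stood at 31.3, 25.9 and 26.3 TPM in siZIP10 plus DTPA and 23.3, 21.9 and 22.5 TPM in siControl (0.28, SE 0.07, adjusted p = 0.00566). Aars2 stood at 14.6, 13.2 and 13.0 TPM in siZIP10 plus DTPA and 10.2, 12.7 and 11.9 TPM in siControl (0.22, SE 0.08, adjusted p = 0.0363). Neither overlapped siControl, but the Aars2 call was lost without siControl replicate 1 or 3 or siZIP10 plus DTPA replicate 1 or 2 (0.14 to 0.24, adjusted p = 0.0512 to 0.140). Hars2 and Hars lie head to head on opposite strands and share 195 exonic bases, and they moved in opposite directions. The 9 mitochondrial genes not called ranged from −0.29 (Yars2) to 0.25 (Ears2), and Cars2 was also higher in all siZIP10 plus DTPA libraries than in any other (3.62, 3.66 and 3.89 TPM, 0.18, adjusted p = 0.155).

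Set side by side by amino acid, the cytosolic gene had the lower change in 15 of the 17 pairs given here. The pairs are not all separate, as Eprs was set beside both Ears2 and Pars2, and Fars2 beside both Farsa and Farsb. The exceptions were Mars1 and Sars, whose changes of −0.43 and −0.39 were above those of Mars2 (−0.51) and Sars2 (−0.48). The widest gaps were those of Aars and Aars2 (−1.22 and 0.22), Lars and Lars2 (−0.05 and 1.19) and Vars and Vars2 (−1.31 and −0.16). These gaps were not tested, and the values of Lars2 are uncertain, as described below.

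**Figure D3:**
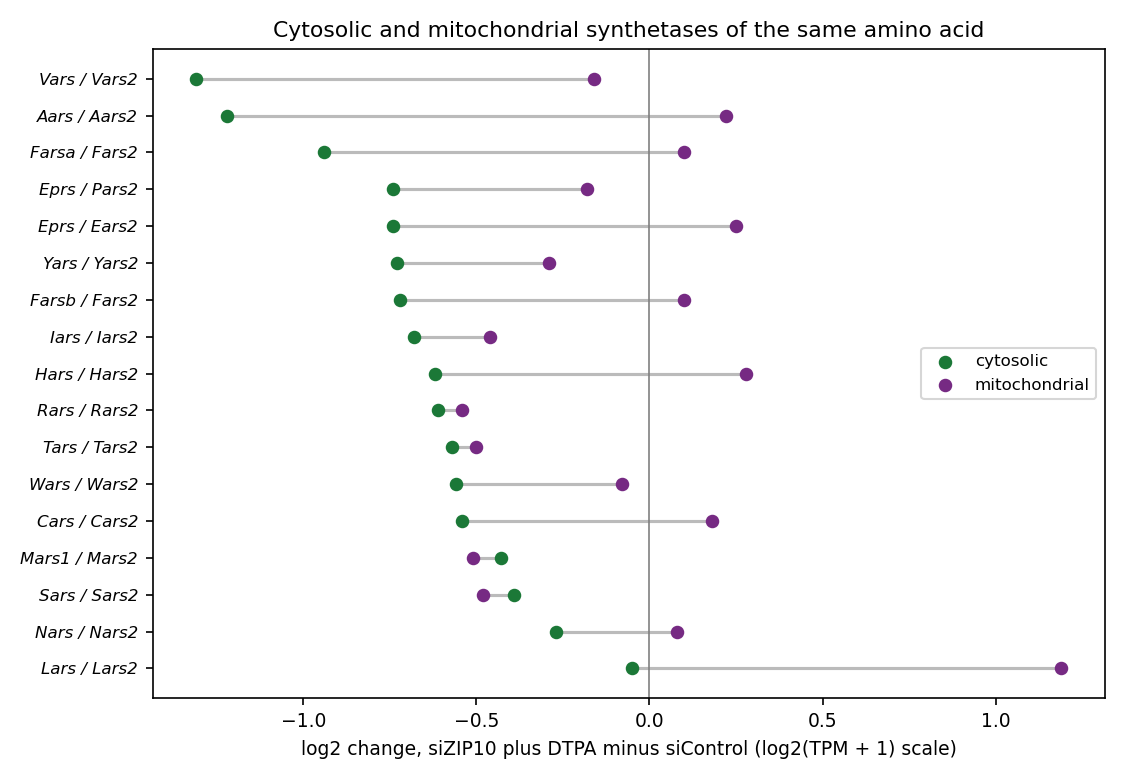
Log2 change with both treatments of each cytosolic gene (green) and the mitochondrial gene for the same amino acid (purple), joined by a line. The green point lies left of the purple one in 15 of the 17 pairs.

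Lars2 (ENSMUSG00000035202.8, chromosome 9, 123366927 to 123462666, plus strand) was listed at 835, 1216 and 928 TPM in siZIP10 plus DTPA, 373 and 523 TPM in siControl plus DTPA, 548, 667 and 501 TPM in siZIP10 and 363, 465 and 466 TPM in siControl. The siZIP10 plus DTPA libraries lay above all others (log2 change 1.19, SE 0.17, adjusted p = 1.06e-04). CT010467.1, a row annotated as nuclear rRNA, was high and low in much the same libraries, at 8482, 17294 and 10336 TPM in siZIP10 plus DTPA, 3611 and 5141 TPM in siControl plus DTPA, 6204, 7305 and 4532 TPM in siZIP10 and 3899, 4969.6 and 4257 TPM in siControl. In siZIP10 plus DTPA, siControl plus DTPA and siZIP10 the order of the libraries was the same in both rows.

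The noncoding gene Gm15564 was likewise highest in siZIP10 plus DTPA, at 39.8, 55.1 and 42.0 TPM, against 12.5, 18.4 and 16.3 TPM in siControl. A coding Lars2 transcript of 3894 bases shares 72 of them (positions 3278 to 3349, past the last coding base at 2908 and in the last of 21 exons) with Gm15564 at 98.6% identity. No other member had a match to Gm15564, CT010467.1 or either mitochondrial rRNA. Nuclear rRNA rows together made up 0.856% to 1.737% of TPM in siZIP10 plus DTPA, 0.366% to 0.518% in siControl plus DTPA, 0.459% to 0.734% in siZIP10 and 0.394% to 0.502% in siControl. Whether reads of ribosomal origin were counted in Lars2 was not tested, and its values are uncertain. Sums of the mitochondrial class are therefore given without it.

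**Figure D4:**
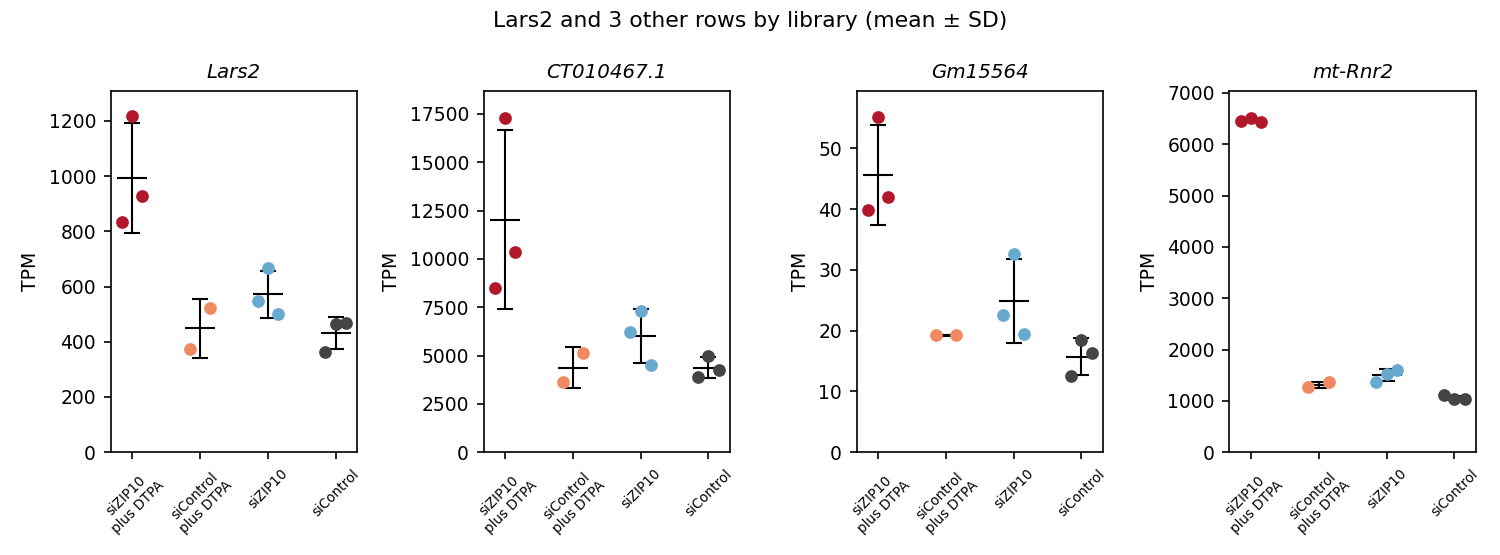
TPM of Lars2, the rRNA row CT010467.1, the noncoding gene Gm15564 and the mitochondrial rRNA mt-Rnr2 in each library (points), with the mean and SD of each group (black). All 4 rows are highest in siZIP10 plus DTPA, and in that group Lars2, CT010467.1 and Gm15564 are highest in replicate 2.

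The second comparison took DTPA alone, siControl plus DTPA against siControl. Of the cytosolic genes 15 of 20 fell, 0 rose and 5 were not called (limma, Benjamini-Hochberg), with a median of −0.22, where 28.8% of all genes tested were called (18.8% lower and 9.98% higher), with a median of −0.04. Vars (−0.63, adjusted p = 4.53e-05), Aars (−0.52, adjusted p = 4.59e-06), Iars (−0.37), Farsa (−0.36), Gars (−0.31) and Yars (−0.30) changed most. The 5 not called were Cars (−0.19), Nars (−0.04), Dars (−0.01), Kars (0.09) and Qars (0.10). Kars and Qars were higher at an unadjusted p under 0.05, and both were called as higher by voom on recovered reads. Among the 17 mitochondrial genes Mars2 (−0.38) and Rars2 (−0.27) fell and Fars2 rose (0.22), with a median of −0.01. The calls of Fars2 (0.22 to 0.23), Mars2 (−0.44 to −0.32) and Rars2 (−0.28 to −0.23) were lost without either siControl plus DTPA library, that of Mars2 also without siControl replicate 2 or 3 and that of Rars2 without siControl replicate 1 or 3. The mitochondrial count by limma was 0 without siControl plus DTPA replicate 1 or 2 (2 and 3 at an unadjusted p under 0.05) and 1 without siControl replicate 3. Wars (−0.11, adjusted p = 0.0447) lost its call without any siControl or siControl plus DTPA library, siZIP10 replicate 3, or siZIP10 plus DTPA replicate 1 or 3 (−0.13 to −0.09, adjusted p = 0.0566 to 0.235). Rars (−0.16) lost it without siControl replicate 1 or siControl plus DTPA replicate 1 (−0.13 to −0.10), and Lars (−0.18) without siControl plus DTPA replicate 2 (−0.13).

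The third comparison took the knockdown alone, siZIP10 against siControl. Of the cytosolic genes 13 of 20 fell, 0 rose (0 also at an unadjusted p under 0.05 in limma and under voom) and 7 were not called, with a median of −0.18, where 30.6% of all genes tested were called (17.5% lower and 13.1% higher), with a median of −0.01. Vars stood apart from the rest at −0.76 (adjusted p = 6.55e-06), followed by Iars (−0.33), Farsa (−0.26), Farsb (−0.25), Lars (−0.22) and Cars (−0.21). Gars, Wars, Nars, Tars, Dars, Kars and Qars, between −0.10 and 0.03, were not called. In the mitochondrial class 4 genes, Vars2 (−0.26), Rars2 (−0.22) and Iars2 (−0.13) among them, fell and Fars2 rose (0.17), with a median of −0.11. Each of these 5 calls was lost without 3 to 5 of the 6 libraries compared, where Vars2 changed by −0.24 to −0.22, Rars2 by −0.22 to −0.16, Iars2 by −0.13 to −0.12 and Fars2 by 0.14 to 0.17. The mitochondrial count by limma was 0 without siZIP10 replicate 1 (5 at an unadjusted p under 0.05), 2 without siZIP10 replicate 2, siControl replicate 1 or siControl replicate 2, and 1 without siControl replicate 3. Among cytosolic genes the call of Sars (−0.08, adjusted p = 0.0475) was lost without any library but siZIP10 replicate 1 (−0.09 to −0.07), that of Cars without siControl replicate 1 or siZIP10 replicate 2 or 3 (−0.22 to −0.16) and that of Eprs (−0.19) without siControl replicate 1 or siZIP10 replicate 2 (−0.16).

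Both single treatments and their combination were set against the same siControl libraries, so these comparisons are not independent of each other. A comparison within the knockdown does not use the siControl means. It is not independent either, because it shares the siZIP10 plus DTPA libraries and a spread estimated from all 11 libraries. With DTPA added to the knockdown (siZIP10 plus DTPA against siZIP10), 16 of 20 cytosolic genes fell and 2 rose, with a median of −0.43, where 60.4% of all genes tested were called (37.3% lower and 23.1% higher). The largest falls were those of Aars (−1.04), Farsa (−0.69), Vars (−0.55), Yars (−0.55), Eprs (−0.54) and Wars (−0.53), and Dars (0.18) and Lars (0.18) rose. Kars (−0.05) and Qars (0.00) were not called, and the Kars change was 0.09 under quantile normalization. In the mitochondrial class Tars2 (−0.38), Sars2 (−0.35), Iars2 (−0.33), Rars2 (−0.32) and Wars2 (−0.23) fell and 4 rose, Lars2 (0.79), Aars2 (0.38) and Hars2 (0.34) among them, with a median of −0.07.

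With the knockdown added to DTPA (siZIP10 plus DTPA against siControl plus DTPA), 18 of 20 cytosolic genes fell and 2 rose, with a median of −0.36, where 53.1% of all genes tested were called (31.7% lower and 21.3% higher). Aars (−0.69), Vars (−0.68), Farsa (−0.58), Farsb (−0.51), Eprs (−0.47) and Rars (−0.45) fell most, and Kars (−0.21) and Qars (−0.19) fell as well. Dars and Lars rose, each by 0.13 on the log2 scale. In the mitochondrial class Iars2 (−0.41), Sars2 (−0.40), Tars2 (−0.28) and Rars2 (−0.28) fell and Lars2 (1.15) and Hars2 (0.27) rose, with a median of −0.13. Without siControl plus DTPA replicate 2 the calls of Lars (0.09), Mars1 (−0.16, then −0.13), Hars2, Rars2 (−0.26) and Tars2 were lost, and the mitochondrial count was 3 in place of 6. The Lars call was also lost without siZIP10 plus DTPA replicate 1 (0.12) or 3 (0.11), that of Hars2 without siControl plus DTPA replicate 1 (0.24 to 0.29) and that of Tars2 without siControl plus DTPA replicate 1 or siZIP10 plus DTPA replicate 2 (−0.29 to −0.21).

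**Figure D5:**
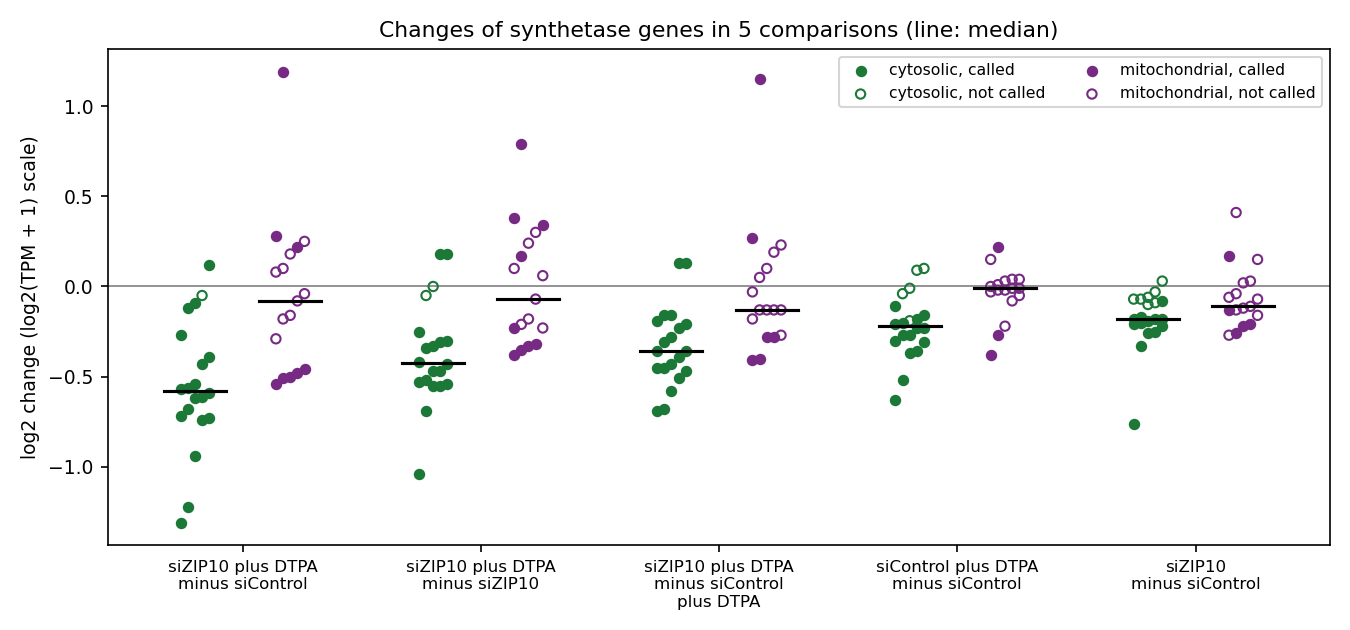
Log2 change of every member in 5 comparisons, cytosolic in green and mitochondrial in purple, filled where called by limma at an adjusted p under 0.05, with the median of each class as a line. The cytosolic median is −0.58, −0.43, −0.36, −0.22 and −0.18 from left to right, and the mitochondrial one is −0.08, −0.07, −0.13, −0.01 and −0.11.

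Over these 5 comparisons 11 cytosolic genes fell in all, namely Aars, Eprs, Farsa, Farsb, Hars, Iars, Mars1, Rars, Sars, Vars and Yars. Of all genes tested 8.79% fell in all 5, and the comparisons share libraries. Cars, Gars, Tars and Wars fell in 4, Nars in 3, Kars, Lars and Qars in 2 and Dars in 0. Of the mitochondrial genes Rars2 alone fell in all 5, Iars2 in 4 and Sars2 and Tars2 in 3, and Cars2, Ears2, Nars2, Pars2 and Yars2 were called in none, in either direction, which held for 23.4% of genes tested.

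A test of the interaction asked whether DTPA changed a gene differently with the knockdown than without it. Of the cytosolic genes 12 of 20 had a negative interaction, 2 a positive one and 6 were not called, with a median of −0.20, where 32.4% of all genes tested were called (20.4% negative and 12.0% positive). Aars had the most negative one (−0.52, SE 0.05, adjusted p = 1.80e-05), DTPA having changed it by −1.04 with the knockdown and by −0.52 without it. Wars followed (−0.42, adjusted p = 9.89e-05), with −0.53 and −0.11. Lars was the most positive (0.35, adjusted p = 7.04e-04), DTPA having changed it by 0.18 with the knockdown and by −0.18 without it. Vars (0.09, adjusted p = 0.487) and Iars (0.02, adjusted p = 0.731) fell in all 5 comparisons and had no called interaction. The same held for Mars1 (0.02, adjusted p = 0.857) and Sars (−0.08, adjusted p = 0.188).

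The cytosolic genes were also divided by a list of ATF4 targets. With both treatments 11 of the 12 listed genes fell, with a median of −0.56, and 7 of the 8 others fell, with a median of −0.61, where 39.9% of all genes tested fell and 26.7% rose. Among ATF4 and its targets outside the family, 11 of 15 genes were tested, of which 7 fell and 3 rose, with a median of −0.32. Shmt2 and Mthfd2, enzymes of mitochondrial one-carbon metabolism, changed by −1.77 and −1.44, Psat1 of serine synthesis by −1.03, the stress gene Sesn2 by −0.92, and Asns, which makes asparagine, by −0.81. Atf4 itself stood at 98.4, 95.3 and 100.2 TPM in siZIP10 plus DTPA, 97.4 and 96.3 TPM in siControl plus DTPA, 108, 108 and 107 TPM in siZIP10 and 107, 106 and 108 TPM in siControl. It was lower in all DTPA libraries than in any library without DTPA, by a small amount (−0.12 with both treatments, adjusted p = 9.80e-04). Cebpb rose (1.16), as did the amino acid transporter gene Slc7a5 (0.14). Ddit3, which encodes the stress factor CHOP, stood at 434, 441 and 440.4 TPM in siZIP10 plus DTPA, 392 and 385 TPM in siControl plus DTPA, 401, 409 and 405 TPM in siZIP10 and 405, 412 and 406 TPM in siControl, and rose by a small amount with both treatments (0.10, adjusted p = 5.62e-04). The 5 genes with the ATF4 and C/EBP element in the windows above changed by −1.22 (Aars), −0.73 (Yars), −0.68 (Iars), −0.59 (Gars) and −0.57 (Tars), with a median of −0.68. Of the 8 cytosolic genes whose windows lack it 7 fell, with a median of −0.41 and a range of −0.94 (Farsa) to 0.12 (Dars), and Farsa, Eprs (−0.74) and Farsb (−0.72) fell by as much as most of these 5. The difference was not tested.

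Other genes of translation moved both ways with both treatments, where 39.9% of all genes tested fell and 26.7% rose. Of 10 cytosolic factors 7 fell and 3 rose, with a median of −0.31. Eef1d (−0.86), a subunit of the elongation factor that reloads eEF1A, the initiation scaffold Eif4g1 (−0.78) and the cap-binding factor Eif4e (−0.71) fell, while Eef1b2 (0.73), Eef1a1 (0.41), which carries charged tRNA to the ribosome, and Eef2 (0.23) rose. Of 13 mitochondrial factors 5 fell and 3 rose, with a median of −0.10, shares close to those of all genes tested. Tufm, the elongation factor that carries charged tRNA to the mitochondrial ribosome, changed by −0.66, and Gatb and Gatc of the glutaminyl-tRNA amidotransferase by −0.60 and −0.52, but Qrsl1, the other gene of that enzyme, was not called (−0.24, adjusted p = 0.203). Mtrf1 (0.30), Mtif3 (0.27) and Mrrf (0.15) rose. Of 8 genes that process or modify mitochondrial tRNA 5 fell and 2 rose, with a median of −0.25, and of 4 genes of tRNA export and 3′ ends 3 fell, with a median of −0.24. Of 5 synthetase-like and proofreading genes 4 were tested. Dtd2 fell (−0.59), Prorsd1 rose (0.20) and Tarsl2 (0.09) and Dtd1 (−0.10) were not called.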

How the data were processed

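Libraries of G1E-ER4 cells had been made with a stranded mRNA kit, per the labels' protocols. The deposited TPM values of 12 libraries list 55487 genes each. The submitters' processing notes name the mm10 build, HISAT2 2.1.0, edgeR, featureCounts, Trimmomatic 0.33 and FastQC without their order. The annotation used and whether counting heeded strand are unknown from the sources used here. Members whose exons overlap an expressed gene are therefore uncertain. These are Hars, Hars2, Mars1, Yars, Cars2, Ears2 and Fars2, by at most 8.0% of exon length, and Iars2, by 22.9%. A share of length does not limit the share of reads, as some overlapping genes stood well above the member. Hars stood at 173.16 to 273.98 TPM beside Hars2 at 19.91 to 31.28 TPM. Naxd, which overlaps Cars2 (mean 3.27 TPM), stood at 19.08 to 22.88 TPM. How far such reads entered the values of members was not tested. Aars, which overlaps Exosc6 on the same strand by 14.3%, is uncertain too, although Exosc6 was listed at 0. Ddit3 is on 2 rows, of which the 1 that is not at 0 was used. Gene positions, exon lengths and biotypes came from GENCODE mouse release 21, in which 36 members matched by symbol and Mars1 by its RefSeq synonym. TPM multiplied by exon length fell on whole reads for 98.9% to 99.2% of values of up to 20 reads (within 0.1 read), which gave the depth.

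The 11379 genes whose mean over 11 libraries reached 1 TPM were tested as log2(TPM + 1), which understates changes of low genes, with limma 3.58.1 (trend on mean expression) in R 4.3.3. The model held 4 group means and left 7 residual degrees of freedom beside 3.21 of the prior. Two-sided p-values were adjusted by Benjamini-Hochberg over these genes within each of 6 comparisons, with a threshold of 0.05. A change is the log2 difference between group means with its standard error (SE), and a level is a TPM value or its mean ± standard deviation (SD). Tests were tried on simulated data with known changes. A few genes are counted in class totals, medians and marker sums, but their own values are not reported here. Members and lists were chosen with earlier results of these data known. All members called in a comparison were to be named up to 6 a class and direction by size, and values in every library given for 12 members called in at least 3 comparisons by largest change, with other members named after their values were seen. Promoter windows are those of RefSeq (GRCm38.p6). Alternatives were another pseudocount (0.1 or 5), filter (none or 5 TPM), scaling (median of ratios, nuclear protein-coding genes or quantile), fit (no trend, only the groups compared, voom on recovered reads, a replicate block), each library left out in turn, and the repeated library kept as labelled. Sums and figures were made in Python 3.11.15 with pandas 2.3.3, matplotlib 3.10.9 and numpy 2.4.6.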

Additional observations from a re-analysis of the deposited data

Results flagged for a closer look

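The effect of DTPA differed between knockdown and control cells in 20 members, by limma's test of the interaction (DTPA effect with the knockdown minus that without it, log2 scale). Of all genes tested 32.4% were called. The 14 of 20 cytosolic genes called were above this share, and the 6 of 17 mitochondrial genes were close to it. Among cytosolic genes it was −0.52 for Aars, −0.42 for Wars, −0.32 for Farsa, −0.27 for Eprs, Rars and Tars, −0.26 for Farsb and Nars, −0.25 for Yars, −0.21 for Gars, −0.19 for Hars and −0.15 for Kars, and it was positive for Lars (0.35) and Dars (0.18). Among mitochondrial genes it was positive for Lars2 (0.74), Aars2 (0.39) and Hars2 (0.33) and negative for Fars2 (−0.29), Iars2 (−0.28) and Wars2 (−0.27). With siControl plus DTPA replicate 1 left out, the interactions of Eprs (−0.25, adjusted p = 0.0724) and Yars (−0.22, adjusted p = 0.0640) were no longer called, and the count of mitochondrial genes was 2 in place of 6. Without siControl replicate 2 or 3 it was also 2, and without siControl plus DTPA replicate 2 or siZIP10 replicate 1 it was 3. Those of Gars, Kars, Aars2, Hars2, Lars2 and Wars2 were each lost without any of 6 to 9 of the 11 libraries (adjusted p = 0.0523 to 0.217).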

How the results depend on the processing

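Of 136 calls of single members over 6 comparisons, 102 were kept under all alternatives other than keeping the repeated library, and 34 were lost under at least 1. Where the log2 mean of the class replaced the sum, the mitochondrial change was −0.03 with DTPA alone, −0.06 with the knockdown alone, −0.06 with both, 0.00 for DTPA within the knockdown and −0.02 for the knockdown within DTPA. Those of the sum were 0.02, 0.27, 0.90, 0.62 and 0.88. With Lars2 left out, chosen after its values were seen, they were −0.04, −0.09, −0.16, −0.07 and −0.12. The sum rests on Lars2 by its construction. The 5 mitochondrial calls with the knockdown alone became 2 with no filter, 2 with only the groups compared, 8 with voom and 3 with the repeated library kept, and the 6 of the interaction became 2 with no filter. The cause was not tested.

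With each library left out in turn, cytosolic calls ranged from 13 to 16 with DTPA alone, 10 to 14 with the knockdown alone, 18 to 19 with both, 18 to 18 for DTPA within the knockdown, 18 to 20 for the knockdown within DTPA and 10 to 14 for the interaction. Mitochondrial calls ranged from 0 to 3, 0 to 5, 7 to 8, 8 to 10, 3 to 7 and 2 to 5 in the same order. Where a group was left with 1 library, that library is assumed to vary like the other groups. Under quantile normalization Kars changed by 0.07 with both treatments and by 0.09 for DTPA within the knockdown, Lars by 0.13 and Qars by 0.07 with both, and Qars by 0.00 under median-of-ratios scaling. The median of all genes with both treatments was −0.08 in TPM and 0.01 under each rescaling.

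Replicate numbers did not pair the libraries: deviations of 15 same-numbered pairs correlated at −0.06 to 0.06. With the replicate block, cytosolic calls were 18, 15, 19, 18, 20 and 14 and mitochondrial calls 2, 4, 7, 8, 7 and 5 in the order above. TPM of the members with fewest reads (Ears2, 32 to 76 reads) limits what could be detected for them.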
